A study of Mus musculus with 2 samples.

Results

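The nuclear genes of oxidative phosphorylation were taken as the autosomal protein-coding genes of the mouse whose symbols begin with Ndufa, Ndufb, Ndufc, Ndufs, Ndufv, Uqcr or Atp5, or with Cox and a digit from 4 to 8, together with Sdha, Sdhb, Sdhc, Sdhd and Cyc1. Complex I assembly factors, whose symbols begin with Ndufaf, were left out. The rule gave 84 of 20807 autosomal protein-coding genes in the GENCODE M21 annotation of mm10. It uses names and places only, and no measured value. Of these members 36 belong by symbol to complex I, 4 to complex II, 9 to complex III, 17 to complex IV and 18 to complex V.

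DNase-seq, in which the nuclease DNase I cuts chromatin that is not wrapped or otherwise protected, was measured in hippocampal tissue of female B6CASTF1/J mice aged 25 days, a cross of C57BL/6J with the wild-derived CAST/EiJ strain. The labels call the tissue a layer but do not say which one. There were 2 libraries, biological replicates 1 and 2 of a single group, so nothing could be tested between conditions, and a spread between the libraries may be technical, because the labels give both the same donor entry with separate tissue samples and do not say whether they came from different animals. Replicate 1 had 61466 peaks and 236942 footprints, and replicate 2 had 50379 peaks and 159538 footprints. Sequencing depth is unknown. Among marker genes, 7 of 7 neuronal genes and 5 of 7 genes of hippocampal excitatory neurons were open in the sense defined below. The other 2, Slc17a7 and Prox1, had a peak in 1 library each. Of the astrocyte markers 1 of 5 was open and 4 had a peak in replicate 1. Of the interneuron, oligodendrocyte and microglia markers 0 of 5 each were open. Of the vessel markers 0 of 4 and of the heart and skeletal muscle markers 0 of 8 were open. Among these, Mbp (oligodendrocyte) and Kdr (vessel) had a peak in replicate 1. By the same rule 55.3% of all autosomal protein-coding genes were open.

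Oxidative phosphorylation takes place in the inner mitochondrial membrane. Complexes I and II feed electrons into ubiquinone, complex III passes them to cytochrome c, complex IV reduces oxygen with them, and complex V, the ATP synthase, uses the proton gradient built by complexes I, III and IV to make ATP. A few subunits are encoded in mitochondrial DNA, and nuclear genes encode the rest. X-linked subunit genes are not among the members described here. Neurons depend strongly on this pathway for ion pumping and synaptic transmission, and the factors NRF1, GABPA (an ETS protein), YY1 and ERR-alpha are known from other work as regulators of these genes.

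The sequences shown first are places where a known motif lay inside a footprint, a short stretch protected from DNase I within open chromatin, of both libraries. They were taken from the mm10 genome, read 5′ to 3′ on the strand of the gene and cover the bases common to the footprints of both libraries. Capitals mark the motif, which is the 10-base palindromic motif of NRF1, nuclear respiratory factor 1, except in Ndufs1, where it is the ETS motif (CCGGAAG, here on the opposite strand).
Ndufs1, complex I, chr1:63176827-63176843, minus strand: ggctaCTTCCGGcggaa
Sdha, complex II, chr13:74350282-74350299, minus strand: tgttGCGCAGGCGCagaa
Sdha, complex II, chr13:74350238-74350256, minus strand: ctcggtGCGCAAGCGCagt
Uqcrc1, complex III, chr9:108936672-108936695, plus strand: cgctctGCGCATGCGCagcgcggc
Cox6a1, complex IV, chr5:115349108-115349126, minus strand: aacgggGCGCATGCGCgct
Cox6a1, complex IV, chr5:115349063-115349077, minus strand: gtGCGCAGGCGCtgg
Atp5c1, complex V, chr2:10080437-10080449, minus strand: GCGCACGCGCact
All 5 genes lie on different chromosomes. The pair in Sdha straddles its start, with centres 10.5 bp upstream and 34.5 bp downstream, while both Cox6a1 matches lie upstream, at 89.5 and 134.5 bp.

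A gene was called open when a peak of each library lay within 500 bp of any of its annotated starts. By this rule 76 of the 84 members (90.5%) were open, beside 55.3% of all autosomal protein-coding genes. In replicate 1 alone 77 members had such a peak (background 61.4%), and in replicate 2 alone 76 had one (background 55.9%). By complex, 34 of 36 members were open in complex I, 4 of 4 in complex II, 9 of 9 in complex III, 12 of 17 in complex IV and 17 of 18 in complex V. Complex IV thus held 5 of the 8 members that were not open. The members start in CpG-richer sequence than most genes, and CpG content moves with openness: within 250 bp of the reference start the median ratio of observed to expected CpG was 0.787 in members and 0.626 in all genes. Among genes with a ratio of at least 0.5, 71 of 72 members (98.6%) and 83.2% of all genes were open. Among genes under 0.5, 5 of 12 members (41.7%) and 17.2% of all genes were open. Openness counts any start, while the ratio was measured at the reference start. Of those 5 members, Atp5f1 (ratio 0.354) and Atp5g2 (0.240) had no peak of both libraries within 500 bp of the reference start. The same held for Atp5d, among the 71. Shares by ratio were not counted at the reference start alone.

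Peak signal is the strength that the authors gave each peak, in a unit they do not state, and the strongest peak of a promoter is used here. Over the 76 open members the median signal was 5.53 in replicate 1, with quartiles of 4.07 and 7.71, and 2.39 in replicate 2, with quartiles of 1.85 and 2.80. Over all 11516 open genes the medians were 4.40 and 1.83. Whether the signal was normalised between the libraries is not stated. All 76 members were higher in replicate 1, by a median log2 ratio of 1.27, and the median of all open genes was 1.25. Signals are therefore also given as a percentile, the rank of a gene among all open genes of the same library. The median percentile of the members was 66.6 in replicate 1 and 70.8 in replicate 2. In both libraries at once, 50 of 76 members (65.8%) lay above the median of open genes, beside 41.9% of all open genes, and 23 (30.3%) lay in the top quartile, beside 17.0%. Only 3 members (3.95%), Cox7a1, Cox6b2 and Cyc1, lay in the lowest quartile in both, beside 20.1% of open genes outside the set.

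**Figure D1:**
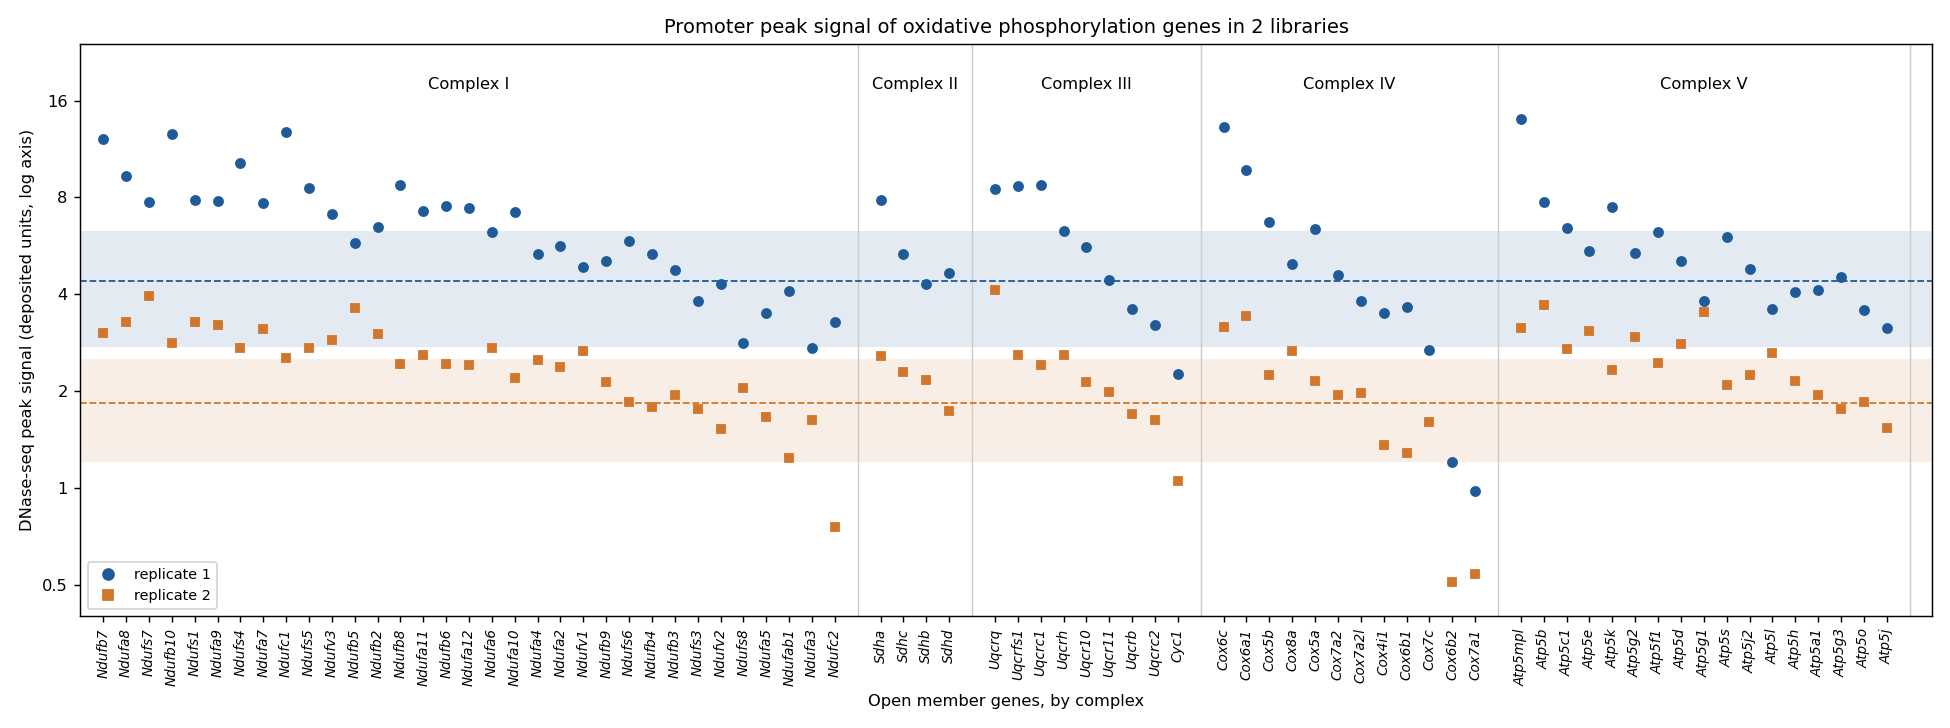
Peak signal (log axis, deposited units) of the strongest promoter peak of 75 of the 76 open members, grouped by complex and ordered by mean percentile; circles are replicate 1 and squares replicate 2, dashed lines are the medians of all open genes (4.40 and 1.83) and bands their quartiles. Every member drawn is higher in replicate 1, most lie above the line of their library, and Cox6b2 and Cox7a1 lie lowest.

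Complex I, the NADH dehydrogenase, had the highest medians, 6.78 in replicate 1 and 2.52 in replicate 2, and 26 of its 34 open members (76.5%) lay above the median of open genes in both libraries. Among its core subunits encoded in the nucleus, which carry the flavin and the iron-sulfur clusters, Ndufs1 had a signal of 7.85 and 3.28 in replicates 1 and 2, and Ndufs7 of 7.75 and 3.95. Both genes stood at the 86.5th percentile or above in both libraries. Other core genes were lower: Ndufv1, which binds NADH, had 4.85 and 2.66, Ndufv2 had 4.31 and 1.52, and Ndufs3 had 3.80 and 1.76. Ndufs8 had 2.82 in replicate 1, the 26.2nd percentile, and 2.05 in replicate 2, the 58.5th. Core genes were thus found both near the top and in the lower part of the range. Accessory subunits held the highest values of replicate 1, with Ndufc1 at 12.8, Ndufb10 at 12.6, Ndufb7 at 12.1 and Ndufs4, whose loss impairs complex I assembly, at 10.3. In replicate 2 the same 4 genes had 2.53, 2.82, 3.04 and 2.72. Ndufc1 showed the widest gap between the libraries among the members, a log2 ratio of 2.34, and its percentile was 98.6 in replicate 1 and 75.4 in replicate 2. The lowest open complex I gene by mean percentile, Ndufc2, had 3.28 and 0.758, and its percentile was 32.8 and 9.40. Ndufab1, the mitochondrial acyl carrier protein, had 4.08 and 1.24.

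In complex II, succinate dehydrogenase, which also works in the citrate cycle, the flavoprotein gene Sdha had the highest signal, 7.86 in replicate 1 and 2.57 in replicate 2. The iron-sulfur subunit gene Sdhb had 4.29 and 2.17. The membrane anchor genes had 5.35 and 2.29 (Sdhc) and 4.65 and 1.73 (Sdhd). All 4 stood above the median of open genes in replicate 1 except Sdhb, at the 48.6th percentile, and in replicate 2 except Sdhd, at the 46.0th.

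Complex III, the cytochrome bc1 complex, held both high and low promoters. Uqcrq, a small subunit near the ubiquinone site, had 8.52 and 4.11, the highest signal of any member in replicate 2. Uqcrc1, a core protein, had 8.72 and 2.41, and Uqcrfs1, the Rieske iron-sulfur protein, had 8.68 and 2.59. The second core protein gene, Uqcrc2, was lower, with 3.22 and 1.63, the 31.9th and 41.9th percentiles. Cyc1, which encodes the cytochrome c1 that hands electrons to cytochrome c, had only 2.26 and 1.05, the 18.2nd and 19.8th percentiles. Within this complex the catalytic genes Uqcrfs1 and Cyc1 thus stood near opposite ends of the range in both libraries. The hinge protein gene Uqcrh had 6.31 and 2.58.

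Complex IV, cytochrome c oxidase, had the lowest medians, 4.20 and 1.96, at the 46.9th and 55.2nd percentiles. It nevertheless held Cox6c, with 13.3 and 3.16, and Cox6a1, with 9.71 and 3.41, among the 5 highest members by mean percentile. Cox5a had 6.37 and 2.15, and its partner in the matrix domain, Cox5b, had 6.71 and 2.25. Cox7c was low, with 2.68 and 1.60. Cox7a2l, which links complexes III and IV into supercomplexes, had 3.81 and 1.97.

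Complex V had medians of 5.07 and 2.44. Its catalytic head is built from the products of Atp5a1, Atp5b, Atp5c1, Atp5d and Atp5e. Of these Atp5b, the catalytic beta subunit, was highest, with 7.72 and 3.70, the 86.4th and 96.3rd percentiles. Its partner in the head, Atp5a1, had 4.13 and 1.94, the 46.1st and 54.5th percentiles, although both subunits enter the enzyme in equal number. The gamma subunit gene Atp5c1 had 6.40 and 2.70, Atp5d had 5.07 and 2.80, and Atp5e had 5.43 and 3.08. The highest gene of the complex by mean percentile was Atp5mpl, a small membrane subunit, with 14.1 in replicate 1, the highest value of any member there, and 3.14 in replicate 2, where Atp5b and Atp5g1 were higher. The lowest was Atp5j, coupling factor 6, with 3.13 and 1.54.

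Several subunits exist as a broadly expressed isoform and as isoforms known mainly from muscle, testis, lung or hypoxic cells. All 6 broad isoforms were open and 2 of 8 restricted isoforms were, beside 55.3% of all genes. All 8 restricted isoforms have a CpG ratio under 0.5, and 17.2% of all such genes were open, so their count is near that of other CpG-poor genes. Cox4i1, the general form of subunit 4, had 3.49 and 1.36, whereas Cox4i2, known from lung and carotid body, had no peak in either library. Cox6a1 was among the highest members, and Cox6a2, the form of heart and skeletal muscle, had no peak. Cox8a had 4.96 and 2.66, and neither Cox8b, of muscle and brown fat, nor Cox8c, of testis, had a peak. Ndufa4, which by symbol counts as complex I but is now placed in cytochrome c oxidase, had 5.35 and 2.51, and its hypoxia-inducible relative Ndufa4l2 had no peak. Cox7b2, known from testis, also had none, while its general form Cox7b is X-linked and no member. The exceptions were Cox6b2, of testis, with 1.21 and 0.510, and Cox7a1, of muscle, with 0.978 and 0.540, which were the 2 lowest open members. Their general forms stood higher: Cox6b1 had 3.65 and 1.28, and Cox7a2 had 4.58 and 1.95. Of the markers of heart and skeletal muscle 0 of 8 and of male germ cells 0 of 7 were open. In bulk tissue, fewer cells with an open promoter and less cutting per cell cannot be told apart.

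The 6 restricted isoforms without a peak, Cox4i2, Cox6a2, Cox7b2, Cox8b, Cox8c and Ndufa4l2, also had no peak in the longer, more lenient list, no footprint and no base listed at a cut-rate false discovery rate of 0.05 or less within 500 bp of any start, in either library. Over all members 77 had such a listed base in both libraries, beside 62.1% of all genes. In the longer list 77 members had a peak in both libraries, beside 61% of all genes. The nearest peak to Ndufa4l2 lay 1887 bp upstream of its start in both libraries and was strong, with a signal of 10.9 and 3.02. Cox6a2 had one 1914 bp upstream in replicate 1 (signal 2.63) and 1894 bp upstream in replicate 2 (0.788), and Cox8b one 2895 bp upstream in both (6.82 and 1.14). For Cox4i2, Cox7b2 and Cox8c the nearest peak lay at least 8965 bp away. Restricted isoforms start in CpG-poor sequence: their median CpG ratio was 0.354 and that of the broad forms 0.927.

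The promoters of Cox4i1 and Cox4i2 are shown as an example of an open and a closed isoform. Each line gives the 100 bases before the reference start on mm10, 5′ to 3′, and capitals mark bases inside a footprint of both libraries.
Cox4i1, chr8:120668122-120668221, plus strand: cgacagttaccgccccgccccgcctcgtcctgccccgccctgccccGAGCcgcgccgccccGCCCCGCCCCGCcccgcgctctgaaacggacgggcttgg
Cox4i2, chr2:152754073-152754172, plus strand: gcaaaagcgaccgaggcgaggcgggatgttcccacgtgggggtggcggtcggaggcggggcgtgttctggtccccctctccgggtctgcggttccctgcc
In Cox4i1 16 of the 100 bases lay in a footprint of both libraries, most of them in a GC-rich run. In Cox4i2 0 of them did, although the sequence also holds GC-rich stretches and 11 CpG sites, against 17 in Cox4i1.

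**Figure D2:**
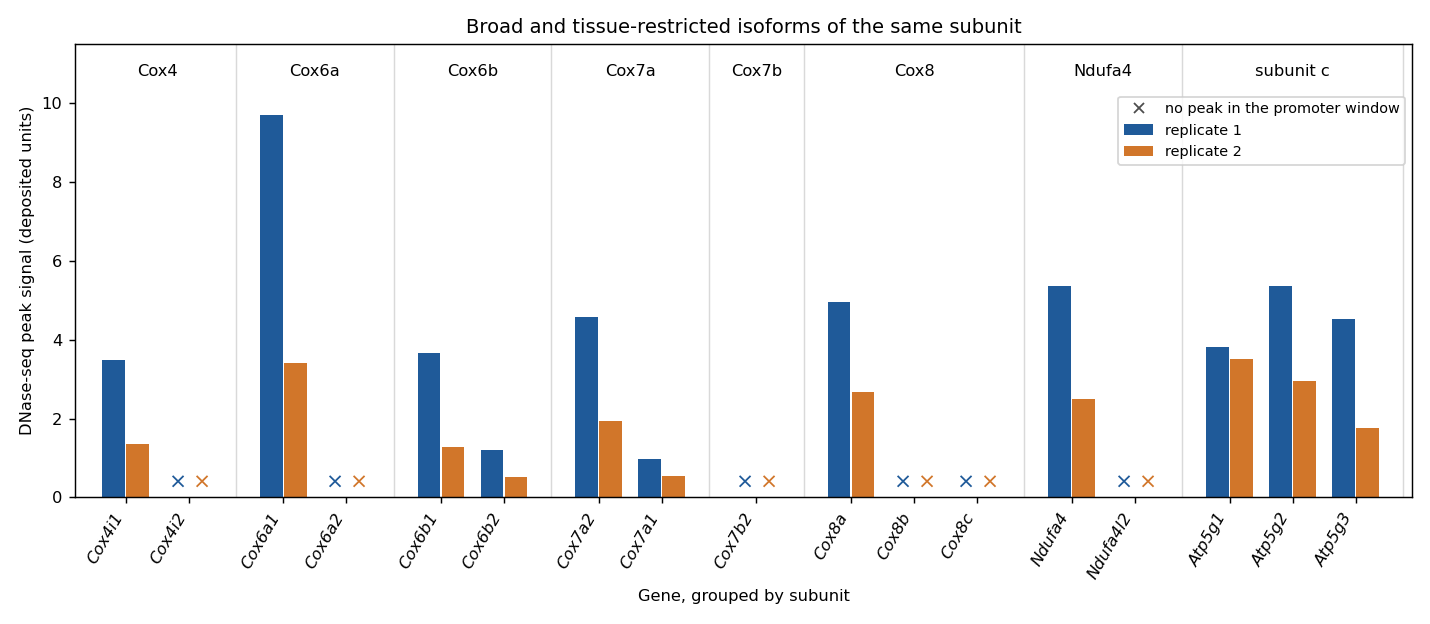
Peak signal (linear axis, deposited units) of isoforms that encode the same subunit, with 1 bar per library; a cross marks a promoter with no peak. The general forms have bars in both libraries, 6 of the 8 restricted forms have crosses, and the 3 genes of subunit c all have bars.

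Subunit c of the ATP synthase, which forms the rotating ring, is encoded by 3 genes for the same mature protein. All 3 were open. Atp5g2 had 5.37 and 2.96, Atp5g3 had 4.52 and 1.76, and Atp5g1 had 3.82 and 3.52. Their order differed between the libraries: Atp5g1 was lowest in replicate 1 and highest in replicate 2. Its log2 ratio of 0.12 was the smallest of any member, and its percentile was 41.1 in replicate 1 and 95.0 in replicate 2, so the 2 libraries do not give the 3 genes one order.

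The other 2 members that were not open are no restricted isoforms. A second gene model named Atp5o (ENSMUSG00000116933.1) had no peak, and the nearest peak, 4619 bp upstream in replicate 1 and 4539 bp in replicate 2, is the promoter peak of the main Atp5o gene. That main gene, which encodes the stalk subunit OSCP, was open, with 3.57 and 1.85. Ndufa13, also known as GRIM-19, had a peak of 0.949 in replicate 1, none in the main list of replicate 2 and one of 0.570 in the longer list. Its start lies between stronger peaks. One, with a signal of 8.99 and 4.09, lies 583 and 563 bp upstream near the start of Yjefn3, and the other, with 6.93 and 2.63, lies 778 and 758 bp downstream near the start of Tssk6.

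Each of the 76 open members had at least 1 footprint of each library within 500 bp of a start, as did 58.1% of all genes and 98.5% of open genes. In 72 of them footprints of the libraries overlapped by at least 50% of the shorter one, beside 89.4% of open genes. The members had a median of 7 footprints (range 1 to 20) in replicate 1 and 5 (1 to 14) in replicate 2, against 6 and 5 in all open genes, and a median of 3 shared footprints against 2. Atp5g2 had the most shared footprints, 11, with 20 and 13 in the libraries. Footprints were counted over the windows of all annotated starts of a gene, and those of Atp5g2 span more than a single window. Uqcrh had 12 and 10 with 8 shared, and Uqcrq had 11 and 11 with 7 shared. Cyc1, Atp5o, Atp5h and Atp5e had footprints in both libraries, but none were shared. Atp5g2 stood at the 64.9th percentile of signal in replicate 1, though at the 86.0th in replicate 2, and Atp5mpl, with the highest signal in replicate 1, had 4 and 3 footprints.

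Cox6a1 is shown over 150 bases because its footprints lie apart from each other upstream of the start. Capitals again mark bases inside a footprint of both libraries, 46 of the 150.
Cox6a1, chr5:115348982-115349131, minus strand: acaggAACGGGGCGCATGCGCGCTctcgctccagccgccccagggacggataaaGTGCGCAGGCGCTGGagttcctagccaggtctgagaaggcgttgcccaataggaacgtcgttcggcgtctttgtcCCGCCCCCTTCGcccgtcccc
The left and the middle stretch hold its NRF1 matches, and the right one, nearest the start, is a GC-rich stretch.

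Peaks and footprints of the members lay close to the start. The centre of the strongest peak was within 100 bp of an annotated start in 72 of 76 members (94.7%) in replicate 1. In replicate 2 it was so in 65 (85.5%), and the shares of all open genes were 72.3% and 68.5%. The nearest of all annotated starts of a gene was used. The median number of starts was 4 in members and 3 in all genes, and its part in these shares was not tested. Of the footprint centres in the members' windows 57.3% and 60.8% lay within 100 bp of the reference start, beside 47.6% and 49.2%. The excess lay mainly from 50 bp upstream to 100 bp downstream of it. In replicate 1 it also reached the bin centred 125 bp downstream, with 0.474 footprint centres per gene against 0.253 in all open genes. In the 50 bp just before the start, members had 1.04 footprint centres per gene in replicate 1, beside 0.767 in all open genes. In replicate 2 the values were 0.921 and 0.702.

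**Figure D3:**
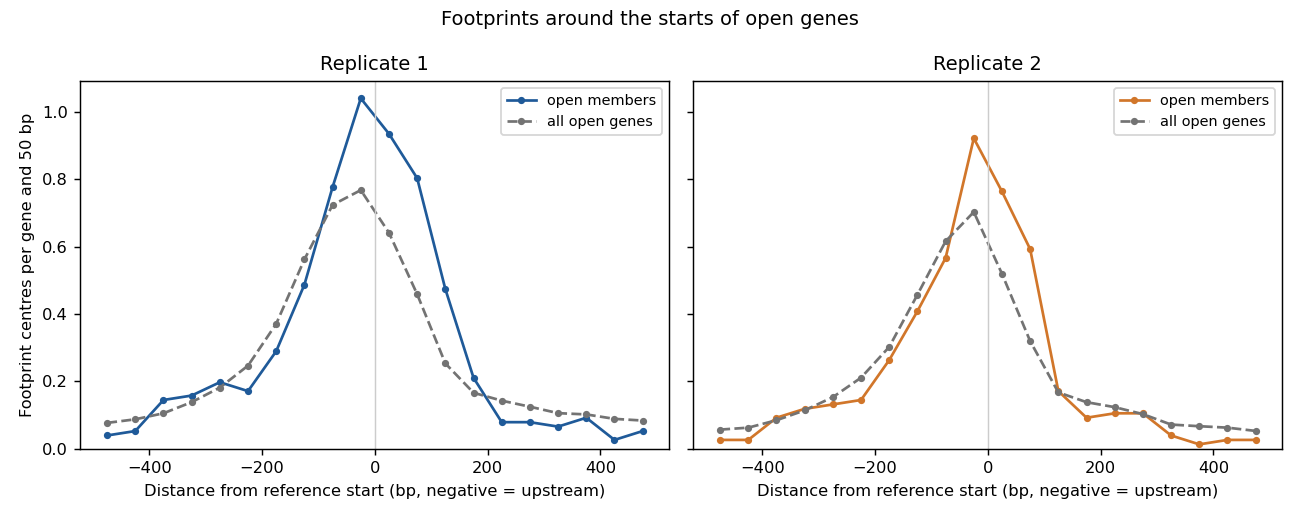
Footprint centres per gene in bins of 50 bp around the reference start (negative is upstream), 1 panel per library; coloured lines are the 76 open members and dashed grey lines all 11516 open genes. In both panels the members' line is above the grey line just around the start, in replicate 1 as far as the bin at 125 bp downstream. Farther upstream and downstream it is mostly close to the grey line or below it.

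Many members share their promoter with a neighbour. A protein-coding gene on the opposite strand started within 1000 bp of any annotated start of 30 members (35.7%), beside 12.7% of all genes. Among open genes this held for 29 of 76 members (38.2%), beside 20.6%. Members had a median of 4 annotated starts and all genes 3, and the part of this in the shares was not tested. In 19 of the 30 pairs the starts were within 100 bp of each other, and in 27 both genes had the same strongest peak in both libraries, so that the signal cannot be assigned to one of them. Some partners were picked as examples after the list was seen, and most of the 30 are not described. Ndufs6 and Ndufb5 lie back to back with the mitochondrial ribosomal protein genes Mrpl36 and Mrpl47, Sdhd with Timm8b, which encodes a chaperone of mitochondrial protein import, and Ndufs1 and Ndufa7 with Eef1b2 and Rps28. Atp5j shares its promoter with Gabpa, which encodes the ETS factor itself. The beginnings of both transcripts overlap in this pair, as they do for Ndufs6 with Mrpl36 and Ndufb5 with Mrpl47. Such partners were found for 15 of 36 members of complex I, 3 of 4 of complex II, 4 of 9 of complex III and 7 of 18 of complex V. Complex IV had 1 of 17, Cox4i1, whose partner Emc8 starts 101 bp upstream.

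Matches to 11 motifs were sought on both strands in the 250 bp either side of 1 reference start per gene. Shares are of the 76 open members and, for comparison, of the 11516 open genes in windows of the same length. YY1 (AANATGGC) was present in 28 members (36.8%), beside 13.7% of open genes. NRF1 was present in 17 (22.4%), beside 12.9%, and THAP11/ZNF143 (ACTACAA) in 10 (13.2%), beside 5.44%. ETS was present in 21 (27.6%), beside 23.5%, and CRE (TGACGTCA) in 5 (6.58%), beside 4.10%. The order was the opposite for SP/KLF (GGGCGGG), in 26 members (34.2%) and 57.9% of open genes, for NFY (CCAAT), in 28 (36.8%) and 45.6%, and for the E-box (CACGTG), in 8 (10.5%) and 13.3%. ZBTB33-type matches stood in 1 member (1.32%), beside 1.16%, and MEF2 matches in 3 (3.95%), beside 3.85%. At least one of NRF1, ETS and YY1 was found in 50 members (65.8%), beside 41.5%. None of the 205 matches overlapped a match of another motif. The members' windows had a median GC content of 58.8%, against 63.1% in all open genes, and its part in these shares was not tested. The reference starts of Atp5d, Atp5f1 and Atp5g2 had no peak of both libraries within 500 bp, so the windows of these genes lie off their peak.

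**Figure D4:**
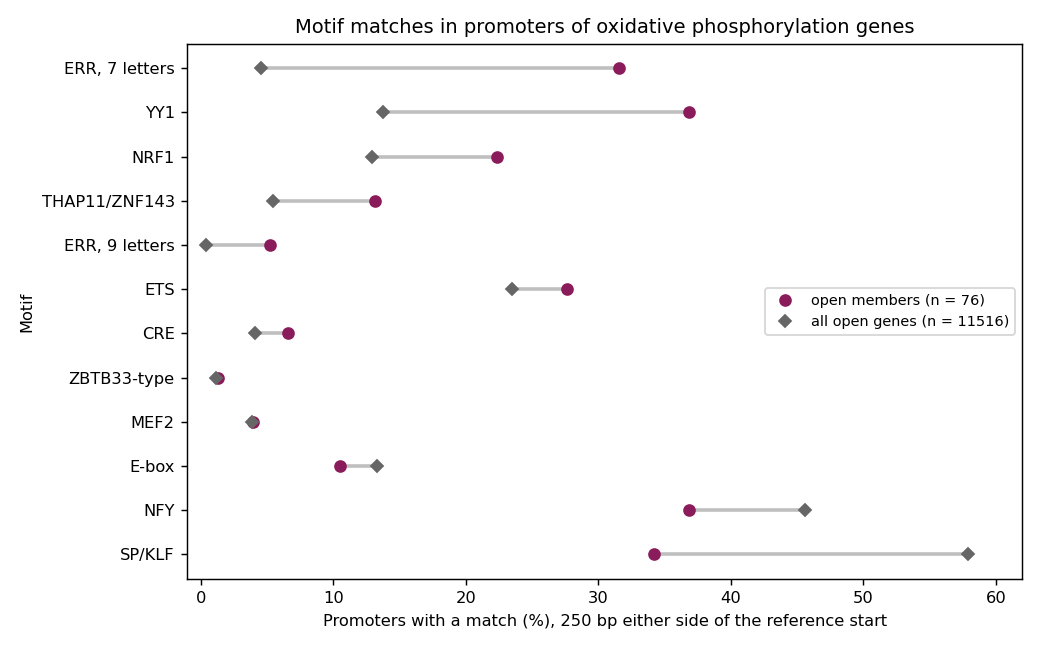
Share of promoters (%) with at least 1 match within 250 bp of the reference start; circles are the 76 open members and diamonds the 11516 open genes, and motifs are ordered by the difference. The 7-letter ERR half-site (31.6% and 4.53%) and YY1 (36.8% and 13.7%) have the members to the right, and SP/KLF (34.2% and 57.9%) has them to the left.

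NRF1, closely followed by SP/KLF, had the most matches covered by footprints in these promoters. Of the 23 NRF1 matches in open members, 12 (52.2%) lay wholly inside a footprint of both libraries, beside 43.5% over all open genes. These fell in 9 members (11.8%, beside 6.30% of open genes): Ndufa11, Ndufb4, Ndufs5, Ndufs8, Sdha, Sdhd, Uqcrc1, Cox6a1 and Atp5c1. Of 40 SP/KLF matches 11 (27.5%) were so covered, beside 12.5%. They fell in 10 members (13.2%, beside 12.8% of open genes). Of 5 CRE matches 3 (60%) were so covered, beside 58.2%. Coverage was rarer for ETS and YY1. For ETS it was 1 of 27 (3.70%), in Ndufs1, beside 5.09%, and for YY1 0 of 30, beside 2.81%. NRF1 matches stood in 7 of 34 open members of complex I, 2 of 4 of complex II, 1 of 9 of complex III, 1 of 12 of complex IV and 6 of 17 of complex V.

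The YY1 matches lay mainly downstream of the start. Their centres lay at a median of 52.5 bp downstream of the start, and 23 of 30 (76.7%) read in the direction of the gene, beside 63.8% over all open genes. In 17 of the 30 (56.7%) the ATG within the motif was an annotated start codon of that gene, beside 29.8% of the matches in all open genes. These 17 members make up 22.4% of open members, and 4.43% of open genes have such a match. A match elsewhere was found in 12 members (15.8%), beside 9.55%. Complex I accounted for most, with a YY1 match in 17 of 34 open members, whereas complex IV had it in 1 of 12. The search fixed the letters AANATGGC, so the stretches are alike there by design. Examples from 4 complexes, a selection of the 17, follow. They are given on the strand of the gene, with the match in capitals and the start codon as the ATG within it.
Ndufa9, chr6:126849100-126849123, minus strand: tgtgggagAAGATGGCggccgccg
Ndufs4, chr13:114388044-114388067, minus strand: cctacaggAAGATGGCggcggtct
Ndufs7, chr10:80249465-80249488, plus strand: ccgaggccAAGATGGCggcgctgg
Sdhb, chr4:140961394-140961417, plus strand: caggagccAAAATGGCggcgacgg
Uqcrc1, chr9:108936708-108936731, plus strand: gaagttagAAGATGGCggcgtccg
Atp5o, chr16:91931543-91931566, minus strand: cccgggaaAAGATGGCcgcgcctg
Because the same letters are read as the beginning of the protein, a match here is a description of sequence and not of a bound factor. Counts of matches outside start codons are therefore given beside it. YY1 matches in other gene lists of the pathway are given further below.

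Among the motifs sought, the largest ratio of shares was that of the ERR motif, the site of the estrogen-related receptors. Its 9-letter form (TCAAGGTCA) stood in 4 open members (5.26%) and 0.408% of open genes. The 7-letter half-site AAGGTCA is an alternative spelling, described in detail because of its values. It stood in 24 open members (31.6%), beside 4.53% of open genes, and in 0 of the 8 members that were not open. Over all genes, open or not, the share was 6.33%, so 0 of 8 says little. The 24 members had 26 matches, of which 4 were the 9-letter form, and none overlapped a match of another motif. They fell in 10 members of complex I, 2 of complex II, 3 of complex III, 2 of complex IV and 7 of complex V. Within classes of GC content the members' counts were as follows. With 50 to 55% GC 2 of 10 members had a half-site beside 7.06% of open genes, with 55 to 60% 11 of 26 beside 5.21%, with 60 to 65% 6 of 22 beside 4.54%, and above 65% 4 of 11 beside 2.97%. Below 50% it was 1 of 7 beside 8.24%. Several of the sites are shown because the half-site separated the members from other open genes most, each with 8 bases on either side, read 5′ to 3′ on the strand of the match, which is in capitals.
Ndufs1, 232 bp upstream, chr1:63177043-63177065, minus strand: agaggttaAAGGTCAaggtccgt
Sdhd, 2 bp downstream, chr9:50603799-50603821, plus strand: gagggctcAAGGTCActctacaa
Uqcrq, 121 bp upstream, chr11:53430937-53430959, minus strand: gctacacgAAGGTCAggccacgc
Cyc1, 219 bp downstream, chr15:76343731-76343753, plus strand: cagccctgAAGGTCAcggcgggg
Cox8a, 65 bp downstream, chr19:7217540-7217562, plus strand: accagtccAAGGTCAgggagtca
Atp5b, 226 bp downstream, chr10:128083488-128083510, minus strand: ccaagctcAAGGTCAcggggaga
Atp5g3, 49 bp upstream, chr2:73911364-73911386, plus strand: agacgctcAAGGTCActttgtaa
Atp5mpl, 1 bp upstream, chr12:111966967-111966989, plus strand: gaatgggaAAGGTCAcagagcac
Of the 26 half-sites 1, in Ndufs1, lay inside a footprint of both libraries, and 8 were within 100 bp of the start. Their median position was 107 bp downstream, against 35 bp upstream over all open genes. The median signal percentiles of the 24 members with a half-site were 73.5 and 76.8, and those of the 52 without were 62.6 and 66.0. Over all open genes those with a half-site stood at 48.4 and 47.2, so the higher rank was seen within the members and not in open genes at large.

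**Figure D5:**
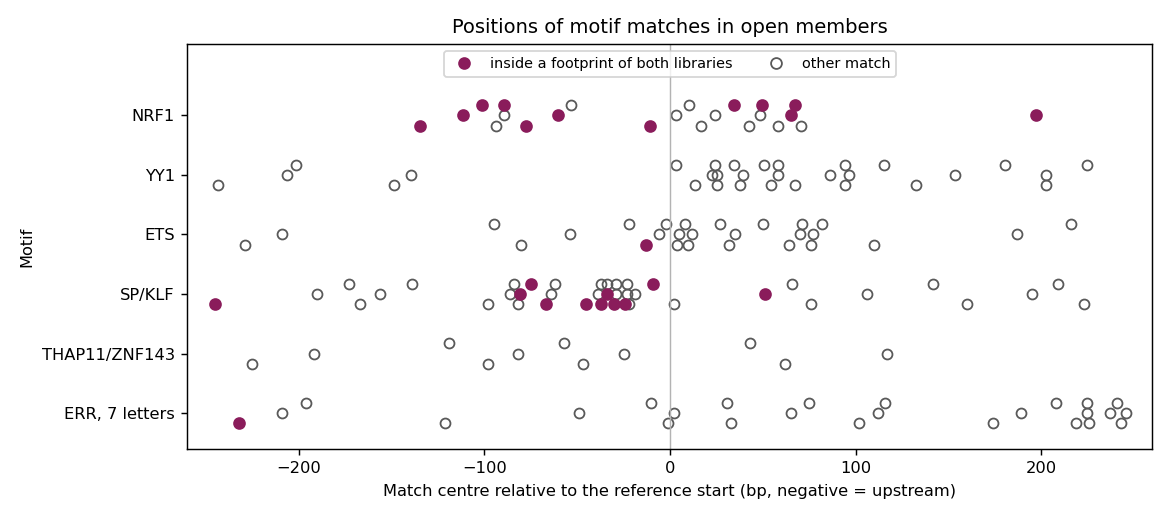
Position of each motif match in the open members relative to the reference start (bp, negative is upstream), 1 row per motif with points spread vertically for legibility; filled points lie inside a footprint of both libraries. YY1 matches gather downstream of the start without filled points, NRF1 has 12 filled points of 23, and ERR half-sites have 1 of 26.

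Most listed genes around the pathway were open as well, by the rule that 55.3% of all genes met. Of 16 listed regulators 14 were open. Esrra, which encodes ERR-alpha, had 6.56 and 3.57, the 77.4th and 95.5th percentiles, Nrf1 had 5.63 and 2.24, Yy1 had 5.15 and 2.30, and Gabpa had the peak it shares with Atp5j, at 3.13 and 1.54. The regulators that were not open were Esrrg, with a peak of 0.581 in replicate 1 only, and Ppargc1a, the coactivator PGC-1alpha, with no peak in either library. Of 34 genes for assembly factors and cytochrome c 32 were open, with median percentiles of 65.6 and 71.6. The closed ones were Sdhaf1 and Cyct, the testis form of cytochrome c. Its general form Cycs had 9.38 and 3.35, the 93.4th and 92.7th percentiles, a contrast in the same direction as that of the isoforms within complex IV. All 14 citrate cycle genes were open, with median percentiles of 72.2 and 70.5. An ERR half-site stood in 3 of 32 assembly genes (9.38%), in 4 of 14 citrate cycle genes (28.6%) and in 0 of 14 open regulators. A YY1 match stood in 8 of 32 assembly genes (25%), 5 of 14 citrate cycle genes (35.7%) and 4 of 14 open regulators (28.6%). It lay at a start codon in 2, 4 and 2 of these genes, so YY1 matches were not particular to the members. The 3 X-linked subunit genes left out by the rule, Ndufa1, Ndufb11 and Cox7b, were open with median signals of 2.24 and 0.968.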

How the data were processed

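The authors deposited, for each of 2 libraries, 2 peak lists, a footprint list and a file of cut-rate false discovery rates on mm10, per the labels. For the aligner, the peak caller and its filters, the tools were not given in the sources used here. Each deposited peak carries a signal value whose scale is not stated. The deposited p-value (a false discovery rate, FDR) of the cut rate is listed per base up to 0.05, and that of footprints is constant at 0.01. Tested on the files, every peak of the shorter list of a library, used as the main list, holds a base at 0.001 or less. Depth is unknown, so the precision of single values rests on 2 libraries.

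Gene starts came from GENCODE M21 and sequences from the RefSeq GRCm38.p6 genome (mm10). The reference start is that of the APPRIS principal transcript, with ties settled by transcript support level and then by transcript name. Python 3.11.15, numpy 2.4.6, pandas 2.3.3 and pysam 0.24.0 were used, and the overlap code was tested on simulated data. A footprint counts as shared at an overlap of 50% of the shorter one. The libraries form 1 group, and no test was made.

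The members, lists and motifs were chosen with earlier results of these data known. Named were all members not open, the highest and lowest by mean percentile, the highest of each complex, those with most shared footprints, the isoform pairs, those with a covered NRF1, ETS or YY1 match and those whose library ratio lay farthest from the median. Other members are named beside them by their role in the complex. The detailed description of the ERR half-site and of YY1 matches at start codons was chosen after their values were seen. Alternatives covered the peak list, window, starts, peak threshold, motif letters and single libraries. Values of 1 member and 1 citrate cycle gene are not reported here.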

Additional observations from a re-analysis of the deposited data

How the results depend on the processing

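No paired analysis was possible because the libraries form 1 group. Under all 10 alternatives the number of open members stayed between 73 and 79, and with single libraries between 76 and 77. The shares of all genes stayed at 61.4% or less. The signal medians lay between 5.43 and 6.29 in replicate 1 and between 2.37 and 2.59 in replicate 2, above those of all open genes under every alternative run. Members with footprints of both libraries numbered 72 to 77, and with single libraries 76 to 77. Restricted isoforms that were open numbered 4 with a window of 2000 bp, which added Cox6a2 and Ndufa4l2, and 0 among the stronger 50% of peaks, which lost Cox6b2 and Cox7a1; with single libraries they numbered 2.

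Motif counts moved with the letters and the window. With other letters NRF1 stood in 28 members (36.8%, beside 26.1% of open genes) and ETS in 36 (47.4%, beside 42.0%). SP/KLF stood in 12 (15.8%, beside 26.9%), CRE in 13 (17.1%, beside 15.1%) and NFY in 12 (15.8%, beside 25.1%). The ERR half-site stood in 24 (31.6%, beside 4.53%), ZBTB33-type in 3 (3.95%, beside 2.58%) and THAP11/ZNF143 in 2 (2.63%, beside 0.834%). With a window of 100 bp YY1 stood in 18 members (23.7%, beside 8.44%) and the E-box in 4 (5.26%, beside 7.29%). CRE stood in 3 there (3.95%, beside 3.10%), THAP11/ZNF143 in 6 (7.89%, beside 2.82%) and MEF2 in 1 (1.32%, beside 1.41%). MEF2 stood in 6 with 500 bp (7.89%, beside 9.07%). The 9-letter ERR form stood in 2 with 100 bp (2.63%, beside 0.0955%) and in 8 with 500 bp (10.5%, beside 1.45%). The ERR half-site was not counted in other windows or at other starts. The order of members against open genes changed for MEF2 and, at 500 bp, for ZBTB33-type. Depth per library is unknown, so a promoter without a peak is one where none was detectable in these libraries.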
